A study of Sus scrofa with 10 samples.

Results

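The genes described here are the MAP kinases, the dual-specificity phosphatases (DUSP) and the regulators of G protein signalling (RGS) of the pig aortic valve. They were chosen by name: a gene entered when the array annotation gave its probe set exactly 1 symbol and that symbol began with MAPK, MAP2K, MAP3K, MAP4K, DUSP, SPRY, SPRED or RGS followed directly by a digit. This gave 33 of the 6765 genes with exactly 1 symbol, carried by 49 of 23999 probe sets, and each gene was read from its probe set with the highest mean signal over all arrays. The 33 genes were 15 kinases, 3 scaffold or binding proteins named after a MAP kinase, 7 DUSP genes and 8 RGS genes. Sprouty and SPRED genes were not among them and were not analysed here.

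RNA came from aortic valve leaflets of female pigs on standard chow and was hybridised to 10 Affymetrix GeneChip Porcine Genome arrays. The juvenile WT group had 3 arrays from Rapacz Wisconsin Miniature Swine with the wild type genotype, RFH -/-, at 3 months of age. The juvenile RFH group had 3 arrays from Rapacz Familial Hypercholesterolemic swine, a strain with inherited high blood cholesterol, also at 3 months, and the adult RFH group had 4 arrays from that strain at 2 years. There were no adult WT arrays among those analysed, so age and the length of time with high cholesterol cannot be told apart in the adult comparison, and strain and genotype cannot be told apart in the juvenile one. The labels did not say that each array was a separate animal, so the p-values measure the spread between these samples, which may be partly technical. All values below are on the log2 scale of the deposited table, and a change is a difference of group means ± its standard error from limma fitted to all probe sets. "Rose" and "fell" are used where the p-value, adjusted by the Benjamini-Hochberg method over all 23999 probe sets, was under 0.05.

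MAP kinases are the last step of a relay of kinases. A MAP4K or a small GTPase activates a MAP3K, which phosphorylates a MAP2K, which in turn phosphorylates a MAP kinase of the ERK, JNK or p38 family. ERK mainly carries growth factor signals, while JNK and p38 mainly carry stress and cytokine signals. Several DUSP proteins switch MAP kinases off by removing the activating phosphates, and some of their genes are themselves induced by MAP kinase signals. RGS proteins act further upstream: they speed up GTP hydrolysis by G protein alpha subunits and so shorten signals from G protein-coupled receptors. The array measures transcripts, not phosphorylation or kinase activity.

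The array medians lay between 6.96 and 7.03, and the lowest correlation between any pair of arrays was 0.9552. The mean over 9 markers of valve interstitial cells was 12.56 to 12.61 in juvenile WT, 12.49 to 12.55 in juvenile RFH and 11.92 to 12.39 in adult RFH arrays. One of them, COL3A1, read close to the array medians, at 6.50 to 7.39. In adult against juvenile RFH leaflets 0 of the 9 rose and 2 fell, POSTN by 1.06 (adjusted p = 0.0057) and COL3A1 by 0.68 (adjusted p = 0.00236), and the differences of the other 7 were also below 0. The juvenile RFH replicate 2 array stood apart in its mean over 9 cardiac muscle markers, at 8.92, where replicates 1 and 3 read 5.30 and 5.76 and the WT and adult arrays 5.15 to 5.58. The 12 poly-A control probe sets, which read RNA added during labelling, averaged 6.54 ± 0.06 (SD, n = 3) in juvenile WT, 6.32 ± 0.02 (SD, n = 3) in juvenile RFH and 7.12 ± 0.16 (SD, n = 4) in adult RFH arrays. The adult minus juvenile RFH difference in these controls was 0.80 (exact two-sided permutation p = 0.0571, which with 4 and 3 arrays cannot be smaller). The part of this difference in the results below was not tested.

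In adult against juvenile RFH leaflets, 5 of 8 RGS genes but 1 of 15 kinases changed. Of the 33 genes, 9 passed the test (27.3%), against 19.3% of all genes. RGS2, RGS4, RGS1, RGS18, DUSP1 and MAPK1IP1L rose, which is 6 genes where 11.4% of all genes rose. RGS5, DUSP14 and MAP4K4 fell, which is 3 genes where 7.85% of all genes fell. By class, 5 of 8 RGS genes passed (62.5%), 2 of 7 DUSP genes (28.6%), 1 of 3 scaffold or binding proteins (33.3%) and 1 of 15 kinases (6.67%). The 5 RGS genes were also the members that changed by at least 2-fold. No test was run of the 33 genes against all genes, or of one class against another.

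The median absolute change was 1.15 over the RGS genes, 0.19 over the kinases and 0.13 over the DUSP genes, beside 0.20 over all genes. The signed median was 0.70 for RGS, 0.05 for the kinases and -0.06 for DUSP, beside 0.02 for all genes. Counting DUSP and RGS together as inhibitors gave 5 that rose, 2 that fell and 8 not called of 15, with a signed median of 0.05, so the inhibitors did not share a direction.

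**Figure D1:**
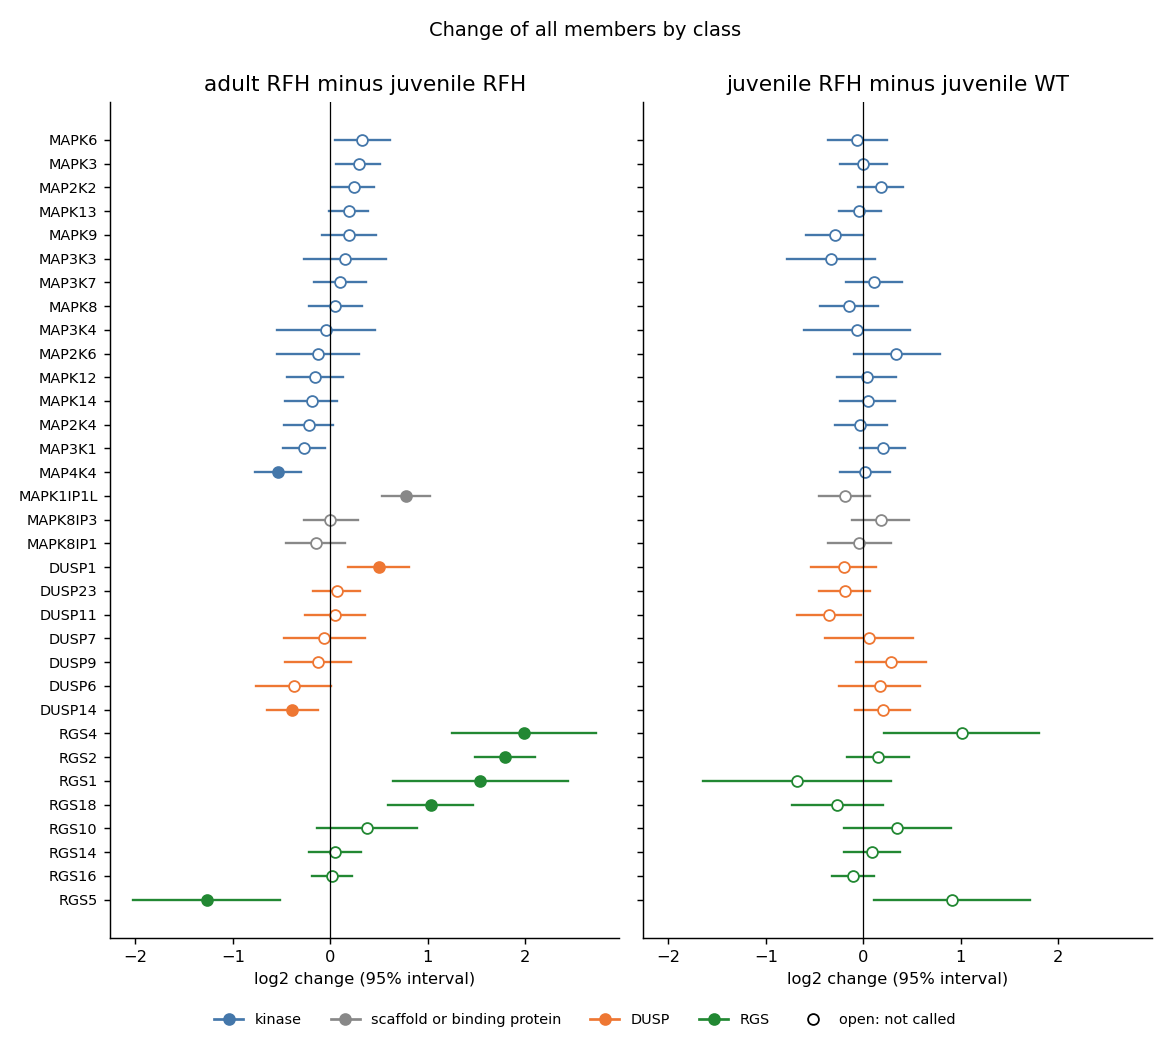
Log2 change of each of the 33 genes between adult and juvenile RFH leaflets (left) and between RFH and WT leaflets of juveniles (right), coloured by class. Dots are the limma estimates, lines the 95% intervals, and filled dots passed an adjusted p of 0.05: 9 in the adult comparison, 5 of them RGS genes, and 0 in the juvenile comparison.

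Among the kinases, the single gene that passed was MAP4K4, a kinase at the top of the relay that feeds stress signals toward JNK. MAP4K4 read 9.94, 9.93 and 10.03 in juvenile WT, 9.86, 10.08 and 10 in juvenile RFH and 9.28, 9.31, 9.64 and 9.55 in adult RFH arrays. All 4 adult values lay below all 6 juvenile values. MAP4K4 fell by 0.54 ± 0.11 (adjusted p = 0.00839), a 1.45-fold fall. Its second probe set changed by -0.24 ± 0.17 (adjusted p = 0.375), and the mean of both probe sets gave -0.39 with an adjusted p of 0.0633, so the call rests on the brighter probe set.

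The 4 MAP3K genes, which take in signals and phosphorylate the MAP2Ks, gave no call. MAP3K1, an activator of the JNK branch, had the smallest p of them. It read 4.04, 4.17 and 3.94 in juvenile WT, 4.20, 4.12 and 4.44 in juvenile RFH and 3.96, 3.97, 4.04 and 3.96 in adult RFH arrays. The adult values lay below every juvenile RFH value but within the range of juvenile WT, for a difference of -0.27 ± 0.10 (adjusted p = 0.0868). These readings are near the low end of the arrays, whose lowest values were 2.01 to 2.21, and the files give no detection calls. MAP3K3, which can activate several branches, read 9.97, 10.90 and 10.14 in juvenile RFH arrays and 10.39 to 10.58 in adults. Its difference was 0.15 ± 0.19 (adjusted p = 0.642). Without juvenile RFH replicate 2, the array with the cardiac muscle transcripts, it became 0.43 (adjusted p = 0.0471). That was 1 of 19 alternative fits to pass, and without juvenile RFH replicate 1 the difference was -0.03 (adjusted p = 0.944). MAP3K4 and MAP3K7 differed by -0.04 ± 0.23 and 0.10 ± 0.12.

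The 3 MAP2K genes also gave no call. MAP2K2 (MEK2), which phosphorylates ERK, read 9.10, 9.18 and 9.25 in juvenile WT, 9.33, 9.44 and 9.31 in juvenile RFH and 9.63, 9.77, 9.54 and 9.44 in adult RFH arrays. The juvenile RFH values were above the WT values, and the adult values were mostly higher again but met the juvenile RFH range at 9.44. The adult difference was 0.24 ± 0.10 (adjusted p = 0.123), while the second probe set of MAP2K2 gave 0.07 ± 0.08 (adjusted p = 0.626). MAP2K4 and MAP2K6, which activate JNK or p38, differed by -0.22 ± 0.11 (adjusted p = 0.212) and -0.13 ± 0.19 (adjusted p = 0.688).

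At the level of the MAP kinases themselves, no gene passed in any of the ERK, JNK or p38 families. MAPK3 (ERK1) read 8.46, 8.51 and 8.55 in juvenile WT, 8.48, 8.66 and 8.39 in juvenile RFH and 8.81, 8.63, 8.97 and 8.77 in adult RFH arrays. Of the adult arrays only replicate 2 fell within the juvenile range. The difference was 0.29 ± 0.10 (adjusted p = 0.0772). It passed in 1 of 19 alternative fits, that without adult replicate 2 (adjusted p = 0.0481), and the adjusted p reached 0.24 in another. MAPK6 (ERK3), an atypical family member, differed by 0.33 ± 0.13 (adjusted p = 0.103). It passed in 1 of 19 alternative fits, that without adult replicate 3 (adjusted p = 0.0478), and the adjusted p reached 0.259 in another.

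For JNK, MAPK8 (JNK1) read 5.22, 5.02 and 5.28 in juvenile WT, 4.93, 5.04 and 5.12 in juvenile RFH and 5.20, 4.97, 4.84 and 5.30 in adult RFH arrays. The groups overlapped, with a difference of 0.05 ± 0.12 (adjusted p = 0.818). MAPK9 (JNK2) read 6.20, 6.16 and 6.01 in juvenile WT, 5.97, 5.60 and 5.93 in juvenile RFH and 6.07, 6.24, 5.98 and 5.82 in adult RFH arrays. The adult values overlapped both juvenile groups, for a difference of 0.19 ± 0.12 (adjusted p = 0.325).

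For p38, MAPK14 (p38 alpha) read 9.50, 9.48 and 9.56 in juvenile WT, 9.42, 9.65 and 9.60 in juvenile RFH and 9.45, 9.45, 9.05 and 9.50 in adult RFH arrays. Adult replicate 3 was the low value, and the others lay within the juvenile range, for a difference of -0.19 ± 0.12 (adjusted p = 0.303). MAPK13 (p38 delta) read 6.44, 6.44 and 6.30 in juvenile WT, 6.24, 6.38 and 6.46 in juvenile RFH and 6.64, 6.45, 6.60 and 6.51 in adult RFH arrays. The adult values lay above WT and met the juvenile RFH range at 6.45 to 6.46. Its difference was 0.19 ± 0.09 (adjusted p = 0.174), while that of MAPK12 (p38 gamma) was -0.16 ± 0.13 (adjusted p = 0.445). Over the 14 kinases that did not pass, the 95% intervals of the difference ran from -0.55 to 0.61, so that each interval stayed inside a 2-fold change in either direction. That bounds the transcript change but does not show that the levels were equal.

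Of the 3 genes named after a MAP kinase they bind, MAPK1IP1L rose. It read 9.05, 8.98 and 9.0 in juvenile WT, 8.81, 8.78 and 8.88 in juvenile RFH and 9.44, 9.86, 9.45 and 9.65 in adult RFH arrays. All adult values lay above all juvenile values, and the change was 0.78 ± 0.11 (adjusted p = 0.00142), or 1.71-fold. The JNK scaffolds MAPK8IP1 and MAPK8IP3, which hold the kinases of the JNK relay together, differed by -0.15 ± 0.14 (adjusted p = 0.497) and 0.00 ± 0.12 (adjusted p = 0.987).

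Among the phosphatases, DUSP1 rose. DUSP1 (MKP-1) is a nuclear phosphatase of p38, JNK and ERK and is itself an early response gene. It read 13.32, 12.95 and 12.92 in juvenile WT, 13.01, 12.83 and 12.75 in juvenile RFH and 13.46, 13.04, 13.44 and 13.51 in adult RFH arrays. The adult values lay above every juvenile RFH value, by little for replicate 2, while the WT value of 13.32 lay inside the adult range. The change was 0.50 ± 0.14 (adjusted p = 0.0372), or 1.41-fold. Leaving out 1 array at a time kept the call in 2 of 10 fits (without juvenile WT replicate 1 and without adult RFH replicate 2), and over all alternatives the adjusted p ran from 0.012 to 0.133.

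DUSP6 (MKP-3), the cytoplasmic phosphatase that acts on ERK and is induced by it, did not pass. It read 10.30, 10.04 and 9.93 in juvenile WT, 10.47, 10.07 and 10.23 in juvenile RFH and 9.70, 10.04, 9.53 and 10.25 in adult RFH arrays. Adult replicates 1 and 3 lay below the juvenile values and replicates 2 and 4 among them. The difference was -0.37 ± 0.18 (adjusted p = 0.174), and its second probe set gave -0.29 ± 0.17 (adjusted p = 0.256). DUSP7 and DUSP9, of the same ERK-directed subfamily, differed by -0.06 ± 0.19 and -0.13 ± 0.15.

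Of the DUSP genes not listed here as MAP kinase phosphatases, a grouping that does not show which act on MAP kinases, DUSP14 fell. It read 8.27, 8.13 and 8.26 in juvenile WT, 8.45, 8.28 and 8.52 in juvenile RFH and 7.85, 7.87, 8.25 and 8.15 in adult RFH arrays. Adult replicates 1 and 2 were the low ones, and replicates 3 and 4 overlapped juvenile WT. DUSP14 fell by 0.39 ± 0.12 (adjusted p = 0.0446). The call stood in 2 of 10 fits with 1 array left out (without adult RFH replicates 3 or 4), with an adjusted p of 0.0178 to 0.153 over all alternatives. DUSP11, which acts on RNA, and DUSP23 differed by 0.05 ± 0.14 and 0.07 ± 0.11. The 95% intervals of the 5 DUSP genes that did not pass ran from -0.76 to 0.36.

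RGS4 and RGS2 gave the largest of the RGS changes. RGS4, a small RGS protein that acts on Gq and Gi signals, read 8.66, 8.19 and 8.38 in juvenile WT, 9.40, 9.56 and 9.29 in juvenile RFH and 10.62, 11.00, 12.39 and 11.61 in adult RFH arrays. The 3 groups did not overlap, and the spread was widest in the adults. RGS4 rose by 1.99 ± 0.34 from juvenile to adult RFH (adjusted p = 0.00353), or 3.98-fold. With any 1 array left out the change was 1.66 to 2.25 and the call stood.

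RGS2, which acts on Gq signals and is known for its part in vascular tone, read 11.34, 10.99 and 10.85 in juvenile WT, 11.23, 11.00 and 11.40 in juvenile RFH and 13.06, 12.84, 13.06 and 13.07 in adult RFH arrays. Both juvenile groups overlapped and every adult value lay above them. RGS2 rose by 1.79 ± 0.14 (adjusted p = 3.19e-05), or 3.47-fold. Its other probe sets did not follow: one changed by -0.27 ± 0.13 (adjusted p = 0.192) and the other, with group means of 4.93 in juvenile RFH and 4.44 in adults, fell by 0.49 ± 0.12 (adjusted p = 0.0212). The mean of the 3 probe sets gave 0.34 with an adjusted p of 0.0527, so the rise rests on the brightest probe set.

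**Figure D2:**
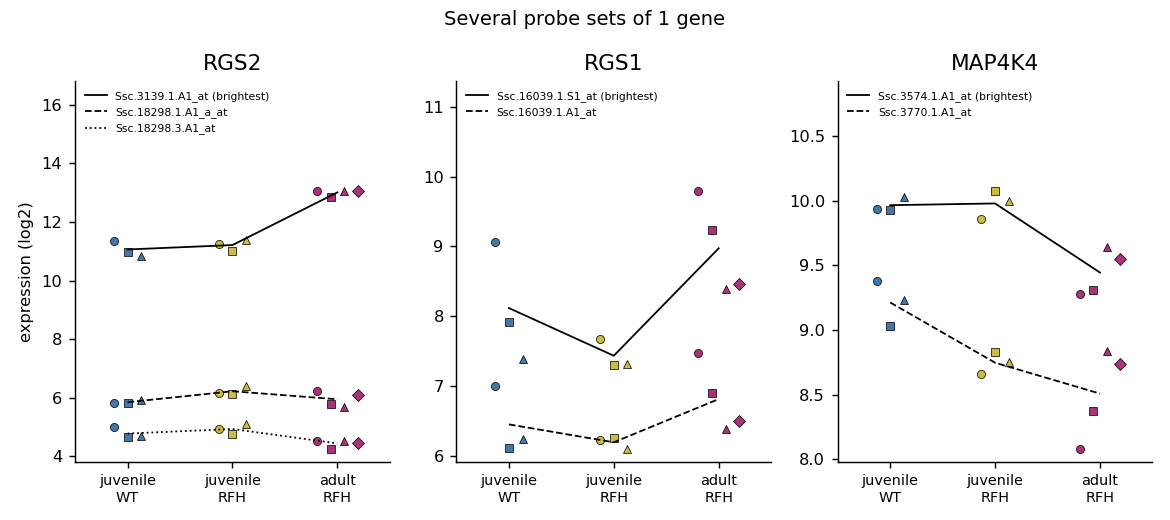
Log2 level in each array of every probe set of RGS2, RGS1 and MAP4K4, with lines joining the group means (marker shapes are replicates). The brightest RGS2 probe set rose by 1.79 while one of the others fell by 0.49, and the second probe sets of RGS1 and MAP4K4 moved in the same direction as the brightest without passing the test.

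RGS1 and RGS18, which are known from blood and immune cells, also rose. RGS1 read 9.06, 7.91 and 7.38 in juvenile WT, 7.68, 7.30 and 7.32 in juvenile RFH and 9.80, 9.24, 8.39 and 8.46 in adult RFH arrays. The adults lay above every juvenile RFH value, but juvenile WT replicate 1 lay inside the adult range. RGS1 rose by 1.54 ± 0.41 (adjusted p = 0.0272), or 2.91-fold, and its second probe set gave 0.62 ± 0.27 (adjusted p = 0.14). The call was lost without any 1 of the 3 juvenile RFH arrays, or without adult replicate 1 or 2 (adjusted p up to 0.0901), so it rests on few arrays.

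RGS18 read 6.17, 6.57 and 6.69 in juvenile WT, 5.85, 6.32 and 6.45 in juvenile RFH and 7.40, 7.53, 7.15 and 6.86 in adult RFH arrays. All adult values lay above all juvenile values. RGS18 rose by 1.03 ± 0.20 (adjusted p = 0.00656), or 2.04-fold, and it passed in every alternative that was run for it. RGS10, another gene of immune cells, read 8.90, 8.84 and 8.65 in juvenile WT, 8.95, 9.34 and 9.16 in juvenile RFH and 10.23, 9.55, 9.06 and 9.27 in adult RFH arrays. Adult replicate 1 was the high value, and the difference of 0.38 ± 0.23 did not pass (adjusted p = 0.301).

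Some markers of several other cell types were higher in the adult arrays, macrophage markers among them. Of 8 measured, 5 rose and 0 fell in the adults, and their mean level was 9.74 to 9.89 in juvenile WT, 10.18 to 10.19 in juvenile RFH and 11.12, 11.20, 10.66 and 10.61 in adult RFH arrays. Adult replicates 1 and 2 were the higher ones for this list and also for RGS1, RGS18 and RGS10. RGS4 had the opposite order, with its highest values in adult replicates 3 and 4. Of 9 endothelial markers 2 rose (VWF by 1.48 and TIE1 by 0.95) and 1 fell, and the list averaged 8.49 to 8.80 in juvenile RFH and 9.33, 9.56, 8.59 and 9.19 in adult RFH arrays. Of 4 adipocyte markers, FABP4 rose by 3.83 and LPL by 1.17, while ADIPOQ and LEP gave 0.12 and -0.13 (adjusted p = 0.539 and 0.317). The mean of the 4 was 5.29 to 5.38 in juvenile RFH and 7.15, 6.89, 6.23 and 6.09 in adult RFH arrays. FABP4 alone read 9.65, 7.87, 6.79 and 6.64 in the adults. Adult replicates 1 and 2 were thus also highest for the endothelial and adipocyte lists. Of 4 neutrophil and mast cell markers, S100A9 rose by 2.74 and read 7.74, 7.62, 8.18 and 5.52 in the adults. S100A8, S100A12 and KIT did not pass, with differences of 0.45, 0.41 and 0.85 (adjusted p = 0.355, 0.243 and 0.219). limma called 0 of 8 lymphocyte markers, though all 8 differences were above 0. The list averaged 5.31 to 5.49 in WT, 5.50 to 5.62 in juvenile RFH and 5.94, 6.75, 5.66 and 5.60 in adult RFH arrays. Adult replicates 1 and 2 were the higher ones for the lymphocyte list too. In whole leaflet tissue, more cells of a type and more RNA per cell cannot be told apart, and the part of these markers in the RGS results was not tested.

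RGS5, known as a marker of pericytes and vascular smooth muscle, went the other way. It read 8.11, 8.41 and 8.69 in juvenile WT, 9.24, 9.83 and 8.86 in juvenile RFH and 8.40, 7.47, 7.48 and 8.81 in adult RFH arrays. The juvenile RFH values were the highest, and the adult values overlapped juvenile WT. RGS5 fell by 1.27 ± 0.34 (adjusted p = 0.0282), or 2.41-fold. The call was lost without juvenile RFH replicate 1 (change -1.30, adjusted p = 0.078), juvenile RFH replicate 2 (-1.01, adjusted p = 0.1) or adult replicate 2 (-1.08, adjusted p = 0.062). Juvenile RFH replicate 2, the highest RGS5 array, is the one with the cardiac muscle transcripts. The other measured pericyte markers, MCAM and KCNJ8, gave -0.79 (adjusted p = 0.0508) and 0.07, and 1 of 6 smooth muscle markers fell (ACTA2, by 1.00). Of 3 erythroid markers, AHSP fell by 1.70 (adjusted p = 0.0088) and ALAS2 by 1.86 (adjusted p = 0.0183). Both read highest in juvenile RFH replicate 2, at 7.06 and 8.77, as RGS5 did. The other one, HBB, gave -0.40 (adjusted p = 0.129). Its highest value was 10.01 in juvenile WT replicate 1, against 9.61 in juvenile RFH replicate 2. The part of these markers in the RGS5 result was not tested.

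RGS16 and RGS14 did not pass. RGS16 read 7.35, 7.34 and 7.20 in juvenile WT, 7.31, 7.02 and 7.24 in juvenile RFH and 7.22, 7.17, 7.19 and 7.25 in adult RFH arrays, with overlap of all groups. Its difference was 0.02 ± 0.09 (adjusted p = 0.931), and that of RGS14 was 0.05 ± 0.12 (adjusted p = 0.834). The 95% intervals of RGS10, RGS14 and RGS16 ran from -0.22 to 0.89.

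**Figure D3:**
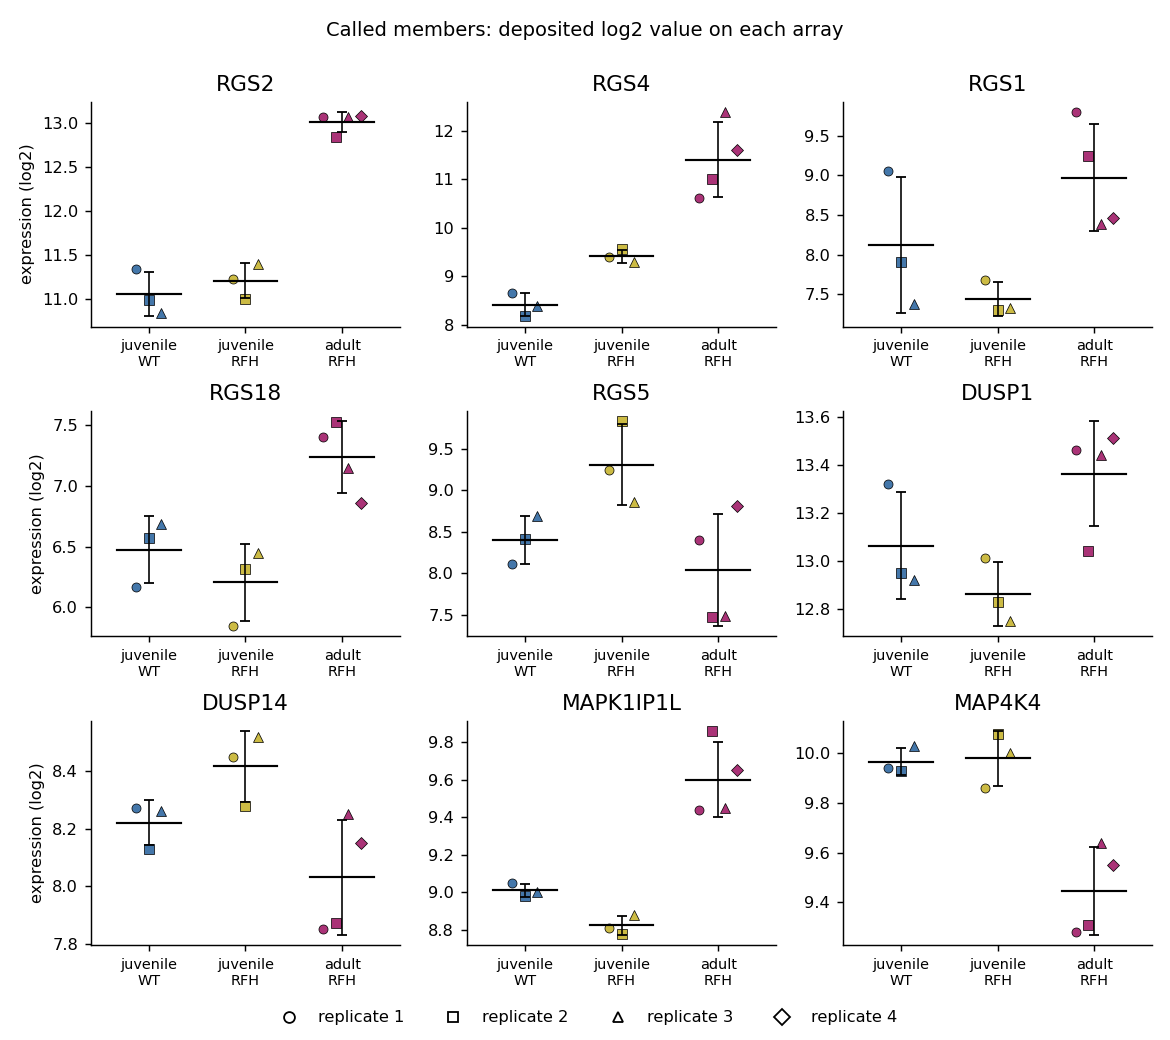
Log2 level in each array of the 9 genes that passed in adult against juvenile RFH leaflets. Points are arrays with marker shapes for replicates, horizontal lines are group means and bars are SDs. RGS2, RGS4, RGS18 and MAPK1IP1L in adults lay above all 6 juvenile arrays and MAP4K4 lay below them, while the adult values of RGS1, RGS5, DUSP1 and DUSP14 overlapped juvenile WT.

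Counting overlap in place of a test did not set the 33 genes above the background. In 10 of 33 genes (30.3%) the adult and juvenile RFH arrays did not overlap, against 29.9% of all genes. In 5 of 33 (15.2%) all adults lay outside all 6 juvenile arrays, against 23.4% of all genes. The first share is close to that of all genes and the second is below it. Averaged within a class, the 8 RGS genes gave 8.42, 8.25 and 8.20 in juvenile WT, 8.44, 8.52 and 8.45 in juvenile RFH and 9.37, 9.08, 9.06 and 9.13 in adult RFH arrays. The adult RGS means were all above the juvenile ones. The mean of the 15 kinases lay between 7.91 and 8.0 in all 10 arrays, and that of the 7 DUSP genes between 8.86 and 9.11.

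The juvenile comparison asks what differed between RFH and WT pigs at 3 months. Here 0 of the 33 genes passed in limma (3 at an unadjusted p under 0.05), where 0.133% of all genes did. The groups did not overlap for 9 of 33 genes (27.3%), against 35.8% of all genes. The median change was 0.02 over the 33 genes and 0.07 over all genes. Both comparisons use the juvenile RFH arrays, so a high or low value in them moves the 2 comparisons in opposite directions.

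RGS4, RGS5 and DUSP11 were the 3 genes. RGS4 was higher in all 3 juvenile RFH arrays than in any WT array, for a difference of 1.01 ± 0.36 (unadjusted p = 0.0176, adjusted p = 0.287). Fitted on the 6 juvenile arrays alone, it passed (adjusted p = 0.0185). RGS5 differed by 0.91 ± 0.36 (unadjusted p = 0.0299, adjusted p = 0.334), again with all juvenile RFH arrays above WT, and by 0.65 without juvenile RFH replicate 2 (adjusted p = 0.743). The erythroid markers AHSP and ALAS2 differed by 1.65 (adjusted p = 0.121) and 1.61 (adjusted p = 0.2) in this comparison. HBB, the other erythroid marker measured, went the other way, by -0.22 (adjusted p = 0.668). The cardiac muscle markers were high in juvenile RFH replicate 2. The part of these markers in the RGS5 difference was not tested. DUSP11 was lower in all 3 juvenile RFH arrays, by a difference of -0.35 ± 0.15 (unadjusted p = 0.0414, adjusted p = 0.365). The 95% intervals of 30 of the 33 genes stayed inside a 2-fold change, and those of the kinases ran from -0.78 to 0.79. The exceptions were all RGS genes, with intervals from -1.65 to 1.80.

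Other genes of the pathway were read from lists that hold 108 genes, of which 54 were measured. In the adult comparison 13 rose and 4 fell, where 11.4% and 7.85% of all genes did, with a median change of 0.20 beside 0.02 over all genes. In the juvenile comparison limma called 0 of the 54. Among 12 growth factor ligands, the EGF receptor ligands HBEGF and AREG rose by 2.91 ± 0.17 (adjusted p = 5.78e-06) and 2.08 ± 0.23 (adjusted p = 0.000378). VEGFA fell by 0.53 ± 0.14 (adjusted p = 0.0275) on its brightest probe set. On the mean of its probe sets VEGFA rose by 0.38 and also passed, so the direction of its call depended on the probe set summary. Of 7 growth factor receptors, PDGFRB fell by 0.42 ± 0.13 (adjusted p = 0.0474), a call that stood in 6 of 19 alternatives.

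Between the receptors and the kinases, 0 of 6 genes of the RAS to RAF relay passed in limma, the smallest p being that of the adaptor GRB2 (0.61 ± 0.19, adjusted p = 0.0519). Of 5 genes on a list named RAS and RAF inhibitors, RASSF1 rose by 1.47 ± 0.10 (adjusted p = 1.3e-05). CBLB, a ubiquitin ligase for activated receptors, fell by 0.59 ± 0.12 (adjusted p = 0.00813). The list name is a label, and inhibition of RAS or RAF by these genes was not tested. Among 11 adaptors of the stress relay, GADD45A, GADD45B and GADD45G rose by 1.71 ± 0.22 (adjusted p = 0.000741), 1.11 ± 0.16 (adjusted p = 0.00138) and 1.39 ± 0.24 (adjusted p = 0.00381). The GADD45 proteins bind and activate MAP3K4, whose own transcript gave -0.04 ± 0.23 above. TXNIP, an inhibitor of thioredoxin, fell by 0.50 ± 0.11 (adjusted p = 0.0117).

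Downstream of the kinases, 2 of 5 kinases that MAP kinases phosphorylate rose. RPS6KA3 (RSK2) rose by 0.68 ± 0.15 (adjusted p = 0.0133) and lost its call without juvenile RFH replicate 1 (adjusted p = 0.0615). RPS6KA1 (RSK1) rose by 0.77 ± 0.22 (adjusted p = 0.035), a call that stood in 10 of 19 alternatives. Of 8 genes on a list named ERK transcription readout, 5 rose and 0 fell, with a median change of 1.54, where 11.4% of all genes rose. IER3, MYC and ATF3 led this list at 2.49 ± 0.13, 3.37 ± 0.19 and 3.47 ± 0.22 (adjusted p = 2.11e-06, 4.24e-06 and 1e-05). FOS and EGR1 also rose, by 1.23 ± 0.17 and 1.85 ± 0.22 (adjusted p = 0.00111 and 0.000574). FOSL1, ETV5 and JUN did not pass, with differences of 0.03 ± 0.10, 0.36 ± 0.15 and 0.41 ± 0.21 (adjusted p = 0.85, 0.124 and 0.219). DUSP6, which ERK induces and which is not on this list, gave -0.37 ± 0.18 (adjusted p = 0.174). The genes on this list respond to other signals as well as to ERK, and the levels of phosphorylated ERK were not measured here.

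**Figure D4:**
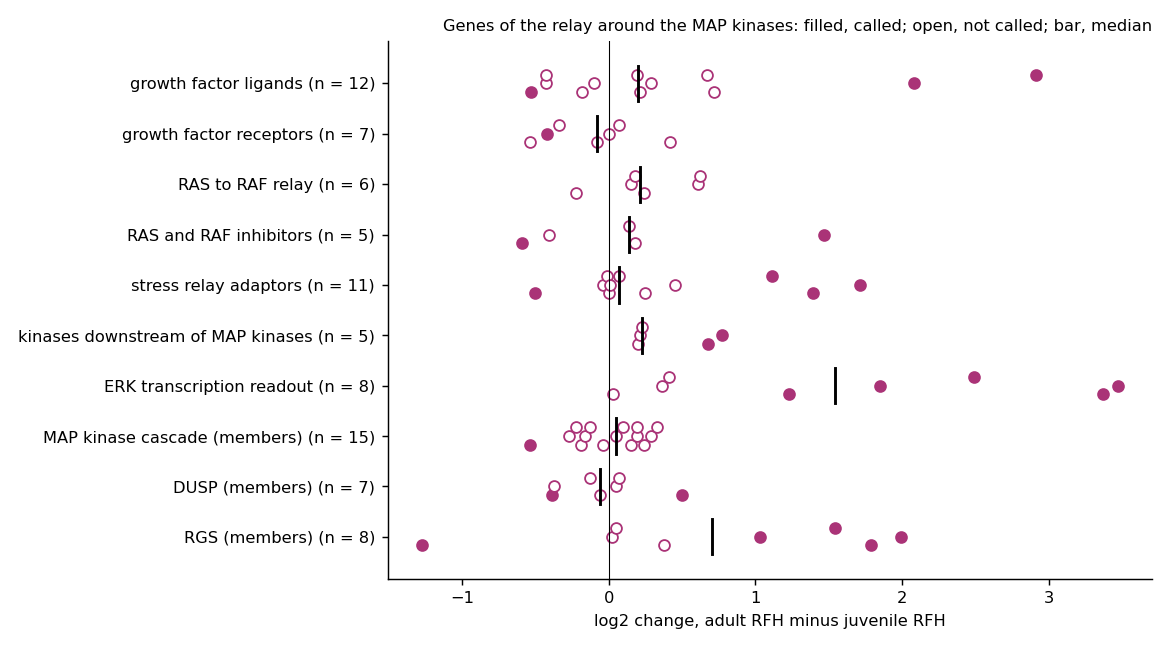
Log2 change, adult RFH minus juvenile RFH, of the genes on each pathway list and of the kinase, DUSP and RGS genes. Filled dots passed an adjusted p of 0.05 and bars are list medians. The median was 1.54 for the list named ERK transcription readout, whose genes also respond to other signals. It was 0.70 for RGS and 0.05 for the kinases.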

How the data were processed

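The authors deposited 1 table of log2 values for 24123 probe sets, with the scale read from the values. Per the submitters' processing notes it was made in R 2.15.2, and background correction, normalization and summary method were not stated in the sources used. The 124 control probe sets were left out, and 10069 probe sets had 1 symbol, 198 several and 13732 none in the platform annotation. All 49 probe sets of the 33 genes keep their symbols in the RefSeq gene table for Sscrofa11.1. limma 3.58.1 in R 4.3.3 was fitted to 23999 probe sets on all 10 arrays with 3 group means, and its moderated test was adjusted by the Benjamini-Hochberg method. Values in every array are given for genes that passed, for the gene with the smallest p of a family in which none passed, and for a preset list of well-known members. RGS10 is also given in every array, though it met none of these rules. Pathway genes are named up to 3 per list and direction by smallest p. FOS, EGR1, FOSL1, ETV5, JUN and single cell type markers were named after their values were seen. The genes and lists were chosen with earlier results of these data known, and they are not independent evidence. The number of arrays limits the precision. Alternatives changed the scaling, the low-value filter or floor, the samples fitted, the prior, the probe set summary, the fold required and the replicate block, and left out each array.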

Additional observations from a re-analysis of the deposited data

Results flagged for a closer look

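Among the 4 adult RFH arrays, 5 of the 33 genes had 1 array flagged as apart from the other 3 by Dixon's ratio at the 95% level. Chance alone gives such a flag in about 1 group in 20. The share of all genes flagged was not computed, so the 5 are not shown to be an excess. DUSP1 was lowest in replicate 2 at 13.04, against 13.44 to 13.51 in the others, and RGS2 was lowest in the same array at 12.84, against 13.06 to 13.07. MAPK14 was lowest in replicate 3 at 9.05, against 9.45 to 9.50. MAP3K1 was highest in replicate 3 at 4.04, against 3.96 to 3.97, in a range near the low end of the array. RGS14 was highest in replicate 1 at 8.25, against 7.75 to 7.82.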

How the results depend on the processing

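Of the 9 genes called in adult against juvenile RFH leaflets, 5 stayed called with any 1 array left out and 3 (RGS4, RGS18 and MAPK1IP1L) under every alternative that could be run for them. The sign changed for 0 of the 9. The count was 5 when values below 4 were raised to 4, 5 when a 2-fold change was also required, and 5 to 9 with 1 array left out, lowest without juvenile RFH replicate 1. The cause of the lost calls was not tested. The juvenile count of 0 became 1 (RGS4) when only the 2 groups compared were fitted, and was 0 with any array left out. With the replicate number as a block the counts were 9 and 0, but same-numbered arrays correlated from -0.156 to 0.185 after group means were removed, so the numbers do not pair the arrays. Members below the median level had no value under the filter on dim probe sets. The small number of arrays, the unknown normalization and the absence of detection calls limit the precision of these values.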

Other observations

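In 14 of the 33 genes more than 1 probe set was measured, which gave 16 further probe sets. In the adult comparison 12 of the 16 had the same sign as the brightest probe set of their gene, and 1 passed the test, the RGS2 probe set that fell. In the juvenile comparison 13 of 16 had the same sign and limma called 0. All 3 probe sets of MAP3K3 had a lower mean in juvenile RFH than in juvenile WT arrays, but the groups overlapped in each. The differences were -0.33 ± 0.20, -0.34 ± 0.18 and -0.38 ± 0.17 (adjusted p = 0.552, 0.484 and 0.38). The second probe set of MAPK6 gave -0.46 ± 0.17 in that comparison (adjusted p = 0.287) where the brightest gave -0.06 ± 0.14. The second probe set of DUSP6 gave 0.51 ± 0.18 (adjusted p = 0.269) where the brightest gave 0.17 ± 0.19. The second probe set of MAP3K7, a kinase activated by cytokine receptors, read higher in all adult than in all juvenile arrays, with an adult difference of 0.43 ± 0.14 (adjusted p = 0.0633).

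The spread between arrays was largest in the adults. The median SD over the 33 genes was 0.1 for WT, 0.136 for juvenile RFH and 0.211 for adult RFH arrays, beside 0.083, 0.113 and 0.196 over all genes.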
